A study of Mus musculus with 2 samples.

Results

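Nonclassical patrolling monocytes were described among the immune cells that infiltrated B16-OVA melanoma tumors, using single-cell RNA sequencing. The cells were chosen by their own RNA. A member had at least 3 unique molecular identifiers (UMIs, one per captured RNA molecule) of *Ace*, *Treml4* and *Adgre4* in sum, at most 2 of *Ly6c2* and at least 1 of *Csf1r*. It also had under 10 of *C1qa*, *C1qb* and *C1qc* together, at most 2 of *Cd3d*, *Cd3e* and *Cd3g* together, under 3 of *Cd209a* and under 3 of *Siglech*, and met a further limit on a gene that is not reported here. The rule found 94 of 5022 cells, of which 48 were in the library labelled *Maoa* WT and 46 in the library labelled *Maoa* KO.

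Nonclassical monocytes are the Ly6C-low monocytes of the mouse. They mostly arise from classical Ly6C-high monocytes under the transcription factor NR4A1, and they crawl along the inner wall of blood vessels, held by the integrin LFA-1 and the fractalkine receptor CX3CR1, where they take up particles and debris. Classical monocytes leave the blood through the chemokine receptor CCR2 and can become macrophages or dendritic cells in tissue. *Ace* encodes angiotensin-converting enzyme, a peptidase of the cell surface. *Treml4* encodes a receptor of the TREM family, *Adgre4* and *Adgre5* encode adhesion G protein-coupled receptors, and *Klf2* encodes a Krüppel-like transcription factor.

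The study grew B16-OVA, a mouse melanoma line that carries ovalbumin, in *Maoa* WT mice and in *Maoa* KO mice, which are deficient in monoamine oxidase A. The knockout line, 129S-Maoa tm1Shih/J, carries a hypomorphic allele, which can leave some expression, and had been bred onto C57BL/6J for many generations, and female adult mice were used. Tumor-infiltrating immune cells were gated as DAPI-CD45.2+ cells, so dead cells and CD45-negative cells were to be removed. For each genotype, 10 tumors were pooled, 10000 cells were loaded on the 10x Chromium platform and 1 3′ library was made. Since no tumor can be told from another in a pool, neither library has a replicate and no test can compare them; the exact 95% intervals given here cover counting error only. The genotype cannot be told apart from anything else that differed between the 2 libraries.

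The WT-labelled library held 2392 cells and 28801253 UMIs (median 9887.5 per cell), and the KO-labelled library held 2630 cells and 23702018 UMIs (median 6945.5 per cell). *Maoa* itself (chromosome X, 16619698 to 16687812, GRCm38.p6) did not separate the labels. The WT-labelled library had 7 UMIs of it, or 0.243 CPM (a gene's share of all UMIs, scaled as copies per 1e6; interval 0.0977 to 0.501), and the KO-labelled library had 15 UMIs, or 0.633 CPM (0.354 to 1.04). The nonclassical monocytes had 0 UMIs of *Maoa* in both libraries, which allows up to 9.62 CPM in the WT-labelled library and 11.3 CPM in the KO-labelled library. A 3′ read outside the altered part of the gene need not be lost with such an allele, and which part is altered is not given in the sources used here.

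The nonclassical monocytes were small in RNA. Their median was 6349 UMIs per cell in the WT-labelled library (lowest 3555, highest 11265) and 5831 in the KO-labelled library (2986 to 10394). Classical monocytes, taken for comparison as *Csf1r*-positive cells with at least 10 UMIs of *Ly6c2*, had medians of 9813 and 9001.5 UMIs. The nonclassical monocytes expressed a median of 1883 and 1786 genes, and mitochondrial RNA made up a median of 1.35% and 1.45% of their UMIs.

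The 3 genes at the centre of the rule are shown here by the 250 bases before a start site, since the sum of their UMIs defines the cells. The sequences and gene models are those of RefSeq on GRCm38.p6, a genome of the mm10 family, and 4 of the 5 marker genes had a promoter window. The windows lie at chr11:105967698-105967947 for *Ace*, chr17:48264045-48264294 for *Treml4* and chr17:55749734-55749983 for *Adgre4*, all on the + strand and written 5′ to 3′. The *Treml4* window overlaps the first bases of the annotated gene, which RefSeq places from 48264200 to 48275607. Capitals mark matches to the motifs named below.
Ace: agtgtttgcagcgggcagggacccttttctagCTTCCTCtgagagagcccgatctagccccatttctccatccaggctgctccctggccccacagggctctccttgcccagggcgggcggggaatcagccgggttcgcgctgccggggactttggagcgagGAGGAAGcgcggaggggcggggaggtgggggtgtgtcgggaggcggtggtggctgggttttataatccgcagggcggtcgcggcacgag
Treml4: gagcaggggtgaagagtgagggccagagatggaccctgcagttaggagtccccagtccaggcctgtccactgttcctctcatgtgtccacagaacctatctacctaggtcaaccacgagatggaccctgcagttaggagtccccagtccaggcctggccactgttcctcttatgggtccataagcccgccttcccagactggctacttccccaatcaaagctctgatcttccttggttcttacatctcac
Adgre4: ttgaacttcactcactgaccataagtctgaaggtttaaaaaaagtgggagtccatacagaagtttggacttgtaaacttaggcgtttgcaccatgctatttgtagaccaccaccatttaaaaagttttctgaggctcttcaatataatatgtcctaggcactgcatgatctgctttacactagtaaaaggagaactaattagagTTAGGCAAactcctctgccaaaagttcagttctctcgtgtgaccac

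The windows were searched on both strands for 4 motifs of myeloid transcription factors: the NR4A element AAAGGTCA, the C/EBP site TTGCNNAA, the SPI1 (PU.1) site GAGGAAG and the KLF site CCACCC. The *Ace* window held 2 SPI1 matches, at bases -218 to -212 on the opposite strand and at -89 to -83 as written, counted back from the start site. SPI1 matches stood in 10.6% of 32851 mouse promoter windows of the same length. The *Adgre4* window held 1 C/EBP match on the opposite strand at -46 to -39, a motif found in 9.56% of windows, and the *Treml4* window held none of the 4. A second *Ace* start site, at chr11:105974939-105975188, had 1 KLF match at -175 to -170, and the *Klf2* window at chr8:72318812-72319061 had 1 on the opposite strand at -19 to -14 (28.1% of windows hold the KLF motif). None of these windows held the NR4A element, which stood in 1.34% of all windows. A match is a description of letters and says nothing of binding.

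The rule genes were read as a description of the chosen cells. *Ace* stood at 366 CPM in the WT-labelled library (114 UMIs) and 395 CPM in the KO-labelled library (105 UMIs), against 6.36 and 6.17 CPM in classical monocytes. *Treml4* stood at 269 and 271 CPM against 5.45 and 7.71, and *Adgre4* at 234 and 282 CPM against 4.54 and 10.8. All 3 genes together were seen in 49 of the 94 cells, a pair of them in 37 and a single one in 8. *Csf1r*, the receptor that keeps monocytes alive, stood at 603 and 590 CPM. *Ly6c2*, which the rule limits to 2 UMIs, was at 0 UMIs in 62 cells, at 1 in 21 and at 2 in 11.

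*Klf2* and *Adgre5* were named as markers of these cells but were not part of the rule. *Klf2* stood at 337 and 338 CPM in nonclassical monocytes and at 209 and 90.3 CPM in classical monocytes. *Adgre5* stood at 314 and 357 CPM against 154 and 172 CPM. Both were therefore higher in the nonclassical monocytes of either library, by smaller ratios than the 3 genes of the rule.

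The threshold cut through a gradient rather than a gap. In all, 192 cells had 3 or more UMIs of the 3 genes, of which 94 met the other conditions. The most common failure was *Ly6c2* above 2 UMIs (68 cells, of which 50 were in the KO-labelled library), followed by 10 or more UMIs of C1q genes (23 cells, of which 18 were in the WT-labelled library). Cells that met all other conditions were then grouped by their summed UMIs of the 3 genes, 202 cells at 0, 57 at 1, 31 at 2, 25 at 3 and 69 at 4 or more. *Ear2*, which encodes a ribonuclease, was at 60.8, 138, 198, 364 and 619 CPM across these groups. *Gngt2*, a G protein gamma subunit, was at 281, 538, 970, 1293 and 2089 CPM, so that the cells with 2 UMIs, just outside the rule, lay between those at 1 and those at 3.

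Other nonclassical genes were higher at 4 or more UMIs than at 0. *Eno3*, the muscle form of enolase, stood at 22.6 CPM at 0 UMIs, 12.9 at 1, 30.9 at 2, 75.3 at 3 and 289 at 4 or more. Its value at 1 rests on 6 UMIs of *Eno3*, and the interval (4.74 to 28.1) covers the value at 0. *Nr4a1* went from 42.5 to 378 CPM and *Itgal*, the alpha chain of LFA-1, from 37.8 to 313 CPM between the first and the last group. *Fn1* and *F13a1*, which encode fibronectin and a chain of coagulation factor XIII and mark classical monocytes, stood at 277 and 185 CPM at 0 UMIs and at 19.1 and 23.9 CPM at 4 or more. *Klf2* and *Adgre5* did not step up at the threshold: they stood at 234 and 304 CPM at 2 UMIs, 226 and 251 CPM at 3, and 380 and 366 CPM at 4 or more. The median depth was 8531 UMIs per cell at 0 and 5968 at 4 or more, and the order was not tested.

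**Figure D1:**
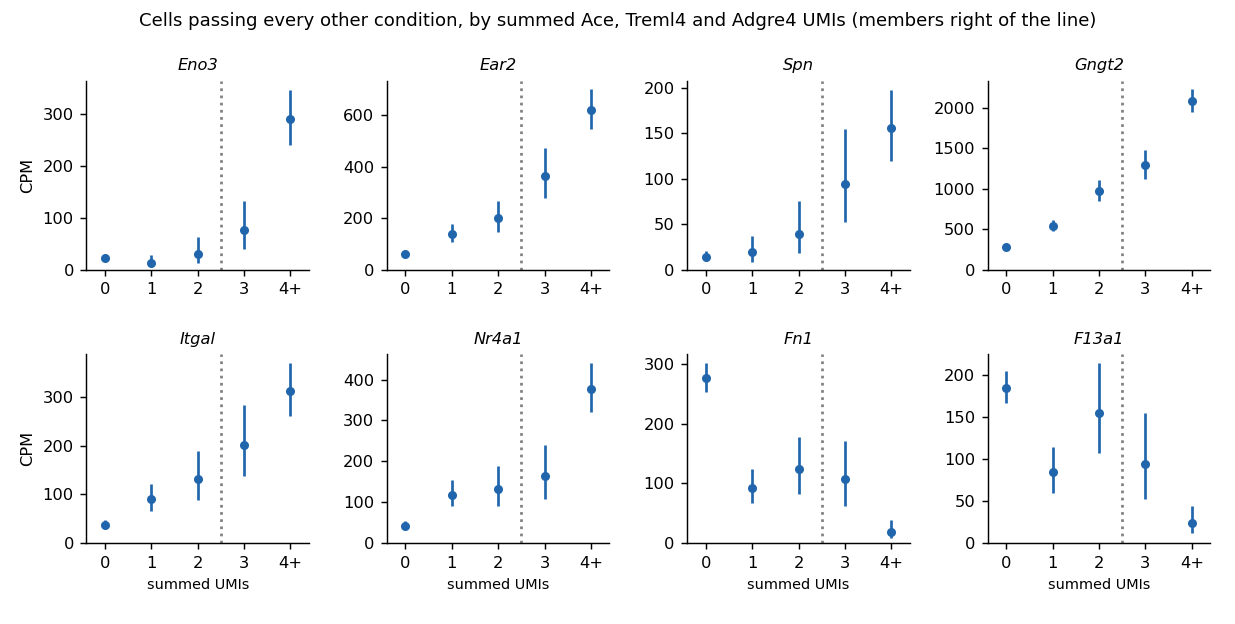
Level (CPM on a linear axis from 0, with 95% counting intervals) of *Eno3*, *Ear2*, *Spn*, *Gngt2*, *Itgal*, *Nr4a1*, *Fn1* and *F13a1* in cells that met every other condition, by summed UMIs of *Ace*, *Treml4* and *Adgre4*; the dotted line is the threshold of 3. *Ear2* is at 60.8 CPM in the 202 cells at 0 UMIs and at 619 CPM in the 69 cells at 4 or more, while *Fn1* is at 277 and 19.1 CPM.

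The cells were also near each other on genes the rule did not use. Among each cell's 15 nearest neighbours out of all cells (13 principal components of 588 variable genes, rule genes left out), a mean of 48.3% of a nonclassical monocyte's neighbours were other nonclassical monocytes, while they were 1.87% of all cells. The mean was 50% in the WT-labelled library and 46.5% in the KO-labelled library, and for 48 of 94 cells the share was above 50%. For 6 cells it was 0. Classical monocytes made up 4.96% of the neighbours, C1q-high macrophages 1.28%, *Cd209a*-positive dendritic cells 0.496% and T cells 0, and cells that no class took made up 45%. Members of the other library were 16.9% of the neighbours of cells labelled WT and 20.6% of the neighbours of cells labelled KO. Members of a cell's own library were more frequent, at 33.1% and 25.9%.

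By this rule the 2 libraries held like shares of these cells. They were 2.01% of all cells in the WT-labelled library (exact binomial interval 1.48 to 2.65) and 1.75% in the KO-labelled library (1.28 to 2.33). Of the *Csf1r*-positive cells they were 5.22% (3.88 to 6.87) of 919 and 4.95% (3.65 to 6.55) of 929. On either denominator each share lay within the interval of the other, so no difference was detectable at this depth, and a share depends on what the sort kept. A threshold of 2 or 5 UMIs in place of 3 gave 2.51% and 1.25% in the WT-labelled library, and 2.47% and 0.875% in the KO-labelled library. With every cell thinned before the rule the shares were 1.29% and 1.42%. With no UMI of *Ly6c2* allowed they lay further apart, at 1.51% and 0.989% (36 and 26 cells), so the likeness depends on that limit.

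Against classical monocytes of the same libraries (104 and 132 cells), 21 of 27 nonclassical identity genes were over 2-fold higher in both libraries, and 6 of 21 classical identity genes, 7 of 23 chemokine and cytokine genes and 15 of 29 interferon-induced genes were over 2-fold lower. This comparison is a description with no test, because the cells' own RNA chose them. Of 6322 genes with at least 30 UMIs, 2.64% stood over 2-fold higher in nonclassical monocytes in both libraries, and 3.94% stood over 2-fold lower in both. These were 167 and 249 genes, and the split depended on the scaling: the median of ratios gave 209 higher and 206 lower, and a total without mitochondrial and ribosomal protein genes 200 and 214. Of the 27 nonclassical identity genes that reached 30 UMIs, 21 were higher by this rule and 0 lower, with a median log2 ratio of 1.88 against -0.06 over all genes. The list was written with earlier results of these cells known, so the count is not independent of their choice.

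*Eno3* (chromosome 11, 70653125 to 70662513) had the largest ratio to classical monocytes among the genes named as higher. It had 73 UMIs in the WT-labelled library and 60 in the KO-labelled library (234 and 226 CPM), against 4 and 10 UMIs (3.64 and 7.71 CPM) in classical monocytes, a ratio of 38.2-fold or 5.26 on the log2 scale (4.50 to 6.21). The levels of the 2 libraries were close to each other and far from either classical value. *Ear2* (chromosome 14, 44102654 to 44103531) followed at 526 and 575 CPM against 35.4 and 21.6 CPM, a log2 ratio of 4.29 (3.91 to 4.70). *Ear2* has near-identical relatives in the mouse genome, whose reads the counting could split or mix.

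*Spn*, which encodes CD43, a heavily glycosylated surface protein that is used to sort these cells, stood at 125 and 154 CPM against 10 and 23.9 CPM, a log2 ratio of 2.97 (2.43 to 3.56). *Itgal* stood at 234 and 338 CPM against 46.3 and 62.5 CPM, a log2 ratio of 2.36 (2.02 to 2.70). *Cx3cr1* stood at 106 and 177 CPM against 17.3 and 54.8 CPM, with a log2 ratio of 1.88 (1.43 to 2.33), and *Itgax*, which encodes CD11c, had a log2 ratio of 1.90 (1.29 to 2.51). In no gene of this group did a classical level reach a nonclassical one in the same library.

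The adhesion list as a whole was mixed. Of its 23 measured genes 5 were higher and 3 lower, beside 2.64% and 3.94% of all genes, with a median of 0.27. *Itgb2*, the beta chain that pairs with the product of *Itgal*, had a log2 ratio of 0.00 (-0.22 to 0.20), and *Selplg*, the selectin ligand, of 0.17 (-0.11 to 0.43). *Ccr2*, the receptor for monocyte egress, stood at 247 and 308 CPM against 618 and 616 CPM, a log2 ratio of -1.16 (-1.41 to -0.93), so its RNA was lower but well above 0.

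Among transcription factors, 5 of 27 genes were higher and 2 lower (median 0.35), beside 2.64% and 3.94% of all genes. *Nr4a1* (chromosome 15, 101253902 to 101274795), the factor that these cells need, stood at 298 and 342 CPM against 42.7 and 91.8 CPM, a log2 ratio of 2.20 (1.89 to 2.51). *Pou2f2*, which encodes the octamer factor OCT2, stood at 330 and 380 CPM against 60.9 and 97.2 CPM (log2 ratio 2.13, 1.84 to 2.42). *Tcf7l2*, an effector of Wnt signalling, had a log2 ratio of 2.12 (1.47 to 2.77), *Hes1*, a Notch target, of 2.64 (2.15 to 3.15), and *Cebpb* of 1.29 (0.96 to 1.62). *Nr4a1* is also an immediate early gene. The immediate early list was mixed, with 3 of 21 genes higher, 1 lower and a median of 0.27. *Fos* had a log2 ratio of 0.13 (0.01 to 0.25) and *Jun* of 0.13 (-0.09 to 0.35).

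Of the survival genes, 1 of 14 was higher and 1 lower, beside 2.64% and 3.94% of all genes. *Bcl2*, the anti-apoptotic gene linked to the long life of nonclassical monocytes, stood at 86.6 and 37.6 CPM against 30 and 18.5 CPM, a log2 ratio of 1.44 (0.79 to 2.05). *Bcl2l1*, which encodes the related BCL-XL, went the other way at 3.21 and 11.3 CPM (1 and 3 UMIs) against 58.2 and 38.6 CPM, a log2 ratio of -2.62 (-4.68 to -1.38). *Mcl1* differed little, with a log2 ratio of 0.30 (0.04 to 0.55).

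Fc and inhibitory receptors split by member, with a median of 0.33. Of 26 genes 6 were higher and 4 lower, beside 2.64% and 3.94% of all genes. *Fcgr4*, the activating receptor for IgG2 antibodies that marks nonclassical monocytes, stood at 532 CPM in the WT-labelled library and 188 CPM in the KO-labelled library, against 168 and 87.9 CPM. *Fcgr1*, the high-affinity IgG receptor, was lower at 199 and 128 CPM against 585 and 417 CPM (log2 ratio -1.57, -1.89 to -1.27). *Ceacam1* had a log2 ratio of 1.67 (1.14 to 2.17), *Cd300a* of 1.13 (0.91 to 1.34) and *Lilrb4a* of -1.28 (-1.47 to -1.10), all of them inhibitory receptors of myeloid cells. Pattern recognition genes had 1 of 15 higher and 1 lower, and *Tlr7*, the sensor of single-stranded RNA, had a log2 ratio of 1.59 (0.90 to 2.25).

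Scavenging and lipid genes also went both ways, 5 of 24 higher and 6 lower, beside 2.64% and 3.94% of all genes. *Cd36*, the fatty acid and oxidised lipid receptor, had a log2 ratio of 2.54 (1.98 to 3.11), although it stood at 64.1 CPM in the WT-labelled library and 173 CPM in the KO-labelled library. *Pltp*, phospholipid transfer protein, had a log2 ratio of 2.62 (1.96 to 3.31) and *Fabp4* of 2.39 (1.75 to 3.06). *Apoe* stood at 1562 and 3323 CPM against 279 and 776 CPM (2.11, 2.0 to 2.22). *Lpl*, lipoprotein lipase, was lower at 6.41 and 52.6 CPM against 292 and 226 CPM, and *Gpnmb* at 6.41 and 0 CPM (2 and 0 UMIs) against 44.5 and 106 CPM.

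Further genes above classical monocytes had no list of their own. *Hfe*, the regulator of iron uptake, stood at 273 and 158 CPM against 16.4 and 24.7 CPM (log2 ratio 3.39, 2.91 to 3.90). *Adrbk2*, which encodes G protein-coupled receptor kinase 3, had a log2 ratio of 3.33 (2.75 to 3.98), and *Hpgd*, which degrades prostaglandins, of 3.10 (2.54 to 3.70). *Gngt2* stood at 1860 and 1880 CPM against 276 and 287 CPM and was found in all 94 cells. Its level in nonclassical monocytes differed by 0.02 on the log2 scale between the libraries. *Pglyrp1*, a peptidoglycan recognition protein, *Stap1* and *Dusp2* had log2 ratios of 2.34, 2.23 and 2.14.

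*S100a9*, a neutrophil alarmin, passed the naming rule in 3rd place at a log2 ratio of 3.93, but its UMIs came largely from few cells. It had 145 UMIs in the WT-labelled library and 96 in the KO-labelled library, and without the 1 cell per library that had most of it, it had 87 UMIs and 0 UMIs. Transcripts of the neutrophil list were found in 58.6% of T cells of the WT-labelled library and in 5.83% of T cells of the KO-labelled library. The remainder was also uneven: without the richest cell, the WT-labelled library had 156 UMIs of *S100a8* and *S100a9*, of which the next 4 cells held 127. The part of free RNA or of other cells in this value was not tested.

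**Figure D2:**
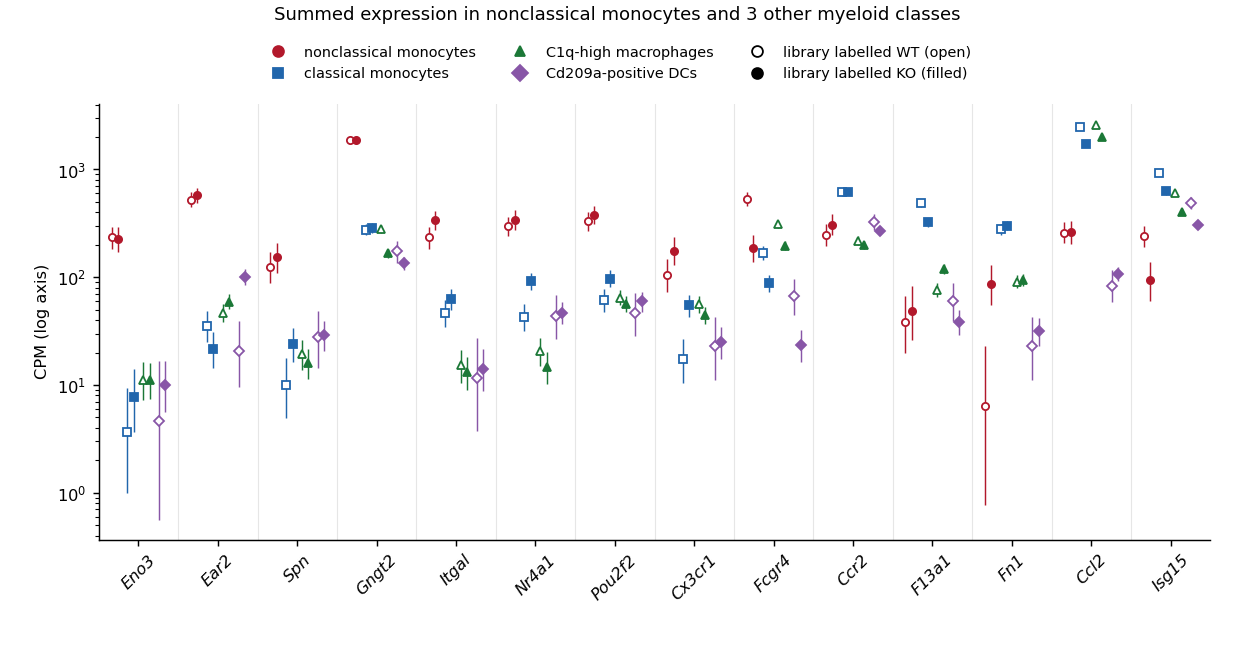
Level (CPM, log axis, bars are 95% counting intervals) of 14 genes in nonclassical monocytes, classical monocytes, C1q-high macrophages and *Cd209a*-positive dendritic cells, open symbols for the WT-labelled library and filled symbols for the KO-labelled library. In *Eno3*, *Ear2* and *Gngt2* the nonclassical monocytes of both libraries lie above all other classes, and in *Ccl2* they lie at 260 and 263 CPM against 2476 and 1706 CPM in classical monocytes.

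The classical identity list showed 6 of 21 genes lower and 1 higher, beside 3.94% and 2.64% of all genes, with a median of -0.74. *F13a1* stood at 38.5 and 48.9 CPM (12 and 13 UMIs) against 489 and 326 CPM, a log2 ratio of -3.18 (-3.85 to -2.64). *Fn1* stood at 6.41 CPM in the WT-labelled library and 86.5 CPM in the KO-labelled library, against 279 and 301 CPM. *Plac8*, a gene shared by both kinds of monocyte, was at 7720 and 5883 CPM against 4470 and 4963 CPM, a log2 ratio of 0.54 (0.48 to 0.59). *Lepr*, the leptin receptor, had 0 UMIs in all 94 cells against 66 and 47 UMIs in classical monocytes, which makes it at least 9.08-fold lower when 3 UMIs are taken for 0 over both libraries.

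Chemokines and cytokines were lower in 7 of 23 genes and higher in 0, beside 3.94% and 2.64% of all genes, with a median of -0.91. *Ccl2*, the ligand of CCR2, stood at 260 and 263 CPM against 2476 and 1706 CPM (log2 ratio -2.97, -3.22 to -2.74). *Ccl7*, a second CCR2 ligand, stood at 60.9 and 52.6 CPM against 1288 and 605 CPM (log2 ratio -3.99, -4.55 to -3.51). The chemokine receptor *Ccr1* had a log2 ratio of -1.98 (-2.48 to -1.55). *Il1b*, the inflammatory cytokine, was no part of this shift, at 581 and 842 CPM against 334 and 569 CPM (0.61, 0.44 to 0.77).

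Interferon-induced genes were lower in 15 of 29 and higher in 0, beside 3.94% and 2.64% of all genes, with a median of -1.15. *Isg15*, the ubiquitin-like modifier, stood at 241 and 94.0 CPM against 920 and 625 CPM, a log2 ratio of -2.13 (-2.44 to -1.84). *Ifit1* and *Ifit3*, which bind viral RNA or its partners, had log2 ratios of -2.96 (-4.54 to -1.93) and -2.45 (-3.35 to -1.76). *Gbp2*, a guanylate-binding protein, stood at 128 and 105 CPM against 485 and 471 CPM. Glycolysis and hypoxia genes had 4 of 22 lower, 0 higher and a median of -0.91, with *Pkm*, pyruvate kinase, at 767 and 838 CPM against 1855 and 1812 CPM and *Ndrg1* at 6.41 and 11.3 CPM against 82.7 and 60.2 CPM.

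MHC class II genes were lower in 1 of 13 and higher in 0 (median -0.22), MHC class I genes in 0 of 14 either way (median 0.03), and cell cycle genes in 0 of 10 either way. Complement genes were lower in 3 of 8 and higher in 1. Alternative activation genes were lower in 1 of 9 and higher in 0. The genes the study followed in its macrophages were lower in 3 of 9 and higher in 0, with a median of -0.44. Over all genes 3.94% were lower and 2.64% higher, so the lists with 1 or 0 genes called do not stand out from that share. Scaling by the median of ratios in place of the UMI total moved all of these log2 ratios by 0.10.

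**Figure D3:**
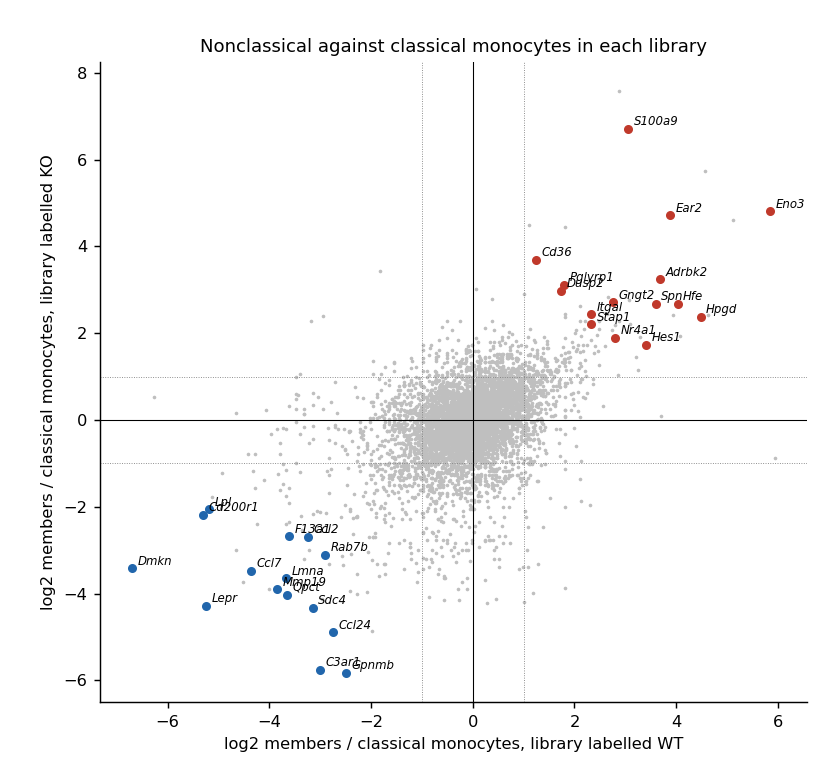
Log2 ratio of nonclassical to classical monocytes for each gene with at least 30 UMIs, in the WT-labelled library (x axis) and the KO-labelled library (y axis), with the 15 named higher and 15 named lower genes in colour and dotted lines at 2-fold. *Eno3* lies at 5.85 and 4.81 and *Ccl7* at -4.36 and -3.47; the naming rule required the same direction in both libraries, so the coloured genes fall in matching corners by construction.

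Against C1q-high macrophages (*Csf1r*-positive cells with at least 30 UMIs of C1q genes, 128 and 136 cells) the nonclassical monocytes differed more widely, again as a description with no test. Of 8124 genes 6.6% were over 2-fold higher in both libraries and 10.6% lower. Nonclassical identity genes were higher in 16 of 28 and lower in 0 (median 2.01 against -0.15 over all genes). *Eno3* had a log2 ratio of 4.36 (3.90 to 4.86), *Itgal* of 4.32 (3.91 to 4.76) and *Nr4a1* of 4.19 (3.81 to 4.58). *Serpinb10*, a serpin of blood-forming cells, had 70 and 59 UMIs against 1 and 3. Monocyte genes that classical monocytes share were also higher, with *Plac8* at a log2 ratio of 3.33 (3.27 to 3.40) and 9 of 21 classical identity genes higher and 0 lower.

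Several genes of resident macrophages were near 0 in the nonclassical monocytes, but not all. The macrophage marker list had 537 and 920 UMIs in them, of which 487 and 884 were *Apoe*. *Mrc1*, the mannose receptor, had 0 and 1 UMIs against 339 and 747, and *Ms4a7* had 0 and 4 against 1034 and 1401. *Igf1*, insulin-like growth factor 1, and *Folr2*, a folate receptor, had 0 UMIs in all 94 cells, which makes them at least 22.3-fold and 12.5-fold lower when 3 UMIs over both libraries are taken for 0. Alternative activation genes were lower in 9 of 13 and higher in 1, scavenging genes lower in 13 of 26 and higher in 1, and cell cycle genes lower in 14 of 20 and higher in 0 (median -3.02). Over all genes 10.6% were lower and 6.6% higher. *Mki67*, a marker of dividing cells, had 1 and 1 UMIs in the nonclassical monocytes against 90 and 150. *Apoe* did not differ in this way, with a log2 ratio of 0.05 (-0.03 to 0.13).

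Against *Cd209a*-positive dendritic cells (at least 3 UMIs of *Cd209a*, 36 and 123 cells), 5.99% of 5978 genes were over 2-fold higher in both libraries and 7.26% lower. Nonclassical identity genes were higher in 23 of 28 and lower in 0 (median 2.63 against -0.04 over all genes). MHC class II and costimulation genes were lower in 9 of 14 and higher in 0 (median -1.55), with *H2-Eb1* at 2389 and 1376 CPM against 7469 and 8201 CPM. *Flt3* had 0 UMIs against 35 and 66, at least 10.1-fold lower. *Cebpb*, a factor of monocyte fate, had a log2 ratio of 4.48 (3.80 to 5.32) and *Fcgr4* of 3.48 (3.08 to 3.91).

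Between the libraries, the nonclassical monocytes had *Chil3* and *Lyz2* over 2-fold higher in the KO-labelled library and *Id2* and *Fcgr4* over 2-fold lower. Of 2305 genes with at least 30 UMIs in the 94 cells, 1.82% stood over 2-fold higher in the KO-labelled library and 3.51% over 2-fold lower. Of all measured genes, 1.78% and 3.21% were past 2-fold with an interval that left out 0 (41 and 74 genes), and 14.6% had such an interval at any size, 6.68% above 0 and 7.94% below. Of 27 nonclassical identity genes 1 was over 2-fold higher and 3 lower, with a median of -0.04 against -0.03 over all genes. The intervals of 6 lay above 0 and of 6 below, so 44.4% of these genes had an interval that left out 0. An interval narrows as UMIs rise, and this share was not compared with that of all genes at like UMIs. With 1 library per genotype, all of these are differences between 2 pools of cells.

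The markers did not move in 1 direction. The log2 ratio (KO-labelled over WT-labelled) was -0.05 (-0.57 to 0.46) for *Eno3*, 0.13 (-0.20 to 0.46) for *Ear2*, 0.20 (-0.24 to 0.63) for *Nr4a1* and 0.30 (-0.37 to 0.97) for *Spn*. These intervals still allow differences of up to about the size of their bounds. In *Itgal* and *Cx3cr1* the ratios were 0.53 (0.07 to 1.0) and 0.73 (0.07 to 1.43). *Fcgr4* (chromosome 1, 171018926 to 171029761) stood apart from these markers, with a log2 ratio of -1.49 (-1.99 to -1.04).

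*Fcgr4* was also lower in the share of cells that had it. In the WT-labelled library 89.6% of nonclassical monocytes had a UMI of it, and in the KO-labelled library 47.8%. With every cell thinned to 3800 UMIs, a depth that 4 and 6 cells did not reach, they were 81.8% and 35%. In T cells, which should lack the receptor, 2.92% and 1.94% had a UMI. Classical monocytes showed the same direction in *Fcgr4* with a log2 ratio of -0.93 (-1.28 to -0.59).

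*Chil3* (chromosome 3, 106147554 to 106167564), which encodes the chitinase-like protein Ym1 of monocytes and macrophages, had the largest ratio among the genes named as higher in the KO-labelled library. It had 65 UMIs (208 CPM) in the WT-labelled library and 409 UMIs (1537 CPM) in the KO-labelled library, a log2 ratio of 2.87 (2.5 to 3.28), or 7.33-fold. The UMIs were uneven among cells: the 5 richest of the 46 KO-labelled cells held 264 of the 409 UMIs (38 to 68 each), 3 of these 5 had the 2 UMIs of *Ly6c2* that the rule allows at most, and the median cell had 2 UMIs of *Chil3*. In the WT-labelled library the 5 richest cells held 43 of the 65 UMIs (4 to 12 each), and the median cell had 0. The share of cells with a UMI was 33.3% and 63.0%, and after thinning 29.5% and 67.5%. The size of the ratio depended on which members were kept. It was 2.44 and 2.45 at thresholds of 2 and 5 UMIs for the 3 rule genes, and 4.32 without members rich in MHC class II, where the WT-labelled library had 12 UMIs in 24 cells and the KO-labelled library 320 in 29. Without members with 2 or more UMIs of T cell, NK cell, B cell or plasmacytoid dendritic cell markers it was 6.45. That value rests on 1 UMI in 13 WT-labelled cells against 159 in 18 KO-labelled cells. The last of these marker lists was also found in 92.3% and 90.9% of classical monocytes. In classical monocytes the ratio was 1.0 (0.88 to 1.12) on the same scale. *Chil3* has close relatives in the mouse genome, so its reads may be shared with them.

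*Lyz2* (chromosome 10, 117277541 to 117282272), lysozyme, a major product of monocytes, differed at a high level. It stood at 9198 CPM in the WT-labelled library and 22317 CPM in the KO-labelled library, a log2 ratio of 1.28 (1.21 to 1.34). Per cell the median was 80.2 UMIs per 10000 in the WT-labelled library (2.66 to 209) and 189 in the KO-labelled library (14.5 to 704), so the ranges overlapped. The middle ranges did not meet, with an upper quartile of 126 in the WT-labelled library and a lower quartile of 148 in the KO-labelled library. Classical monocytes differed by 0.37 (0.34 to 0.39).

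The other genes named as higher in the KO-labelled library had fewer UMIs. *Sh3bgrl3* stood at 818 and 1958 CPM, a log2 ratio of 1.26 (1.04 to 1.48), against 0.82 in classical monocytes. *Cd36* had 20 and 46 UMIs, a log2 ratio of 1.41 (0.64 to 2.27). *Ifi203*, an interferon-inducible gene of the PYHIN family, had 19 and 47 UMIs (1.51, 0.74 to 2.39). It was found in 16 cells of each library, and 1 KO-labelled cell held 19 of the 47 UMIs. Its direction was lost when every cell was thinned to the same depth before the rule was applied (-0.047). *Tmcc1*, *Cd302*, *Lmo4*, *Fdps*, *Mef2c*, *Vapb* and *Arhgef1* had log2 ratios of 1.18 to 1.39 on 51 to 84 UMIs. Of the 12 genes named as higher, *Chil3*, *Lyz2* and *Sh3bgrl3* were past 2-fold under every alternative tried and the other 9 were not. *Fdps* was at 0.17 and *Mef2c* at 0.46 without members with markers of other cells, *Arhgef1* at 0.38 when every cell was thinned, and *Cd36* at 0.56 and *Mef2c* at 0.42 without members rich in MHC class II. *Apoe* and *Egr1*, an immediate early gene, were at 1.09 (0.93 to 1.25) and 1.16 (0.44 to 1.93).

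*Id2* (chromosome 12, 25093799 to 25096092), an inhibitor of helix-loop-helix factors, was among the genes lower in the KO-labelled library. It had 271 UMIs (869 CPM) in the WT-labelled library and 42 UMIs (158 CPM) in the KO-labelled library, a log2 ratio of -2.45 (-2.97 to -1.99). The share of cells with a UMI was 89.6% and 47.8%, and after thinning 72.7% and 42.5%. In classical monocytes the ratio was -1.36 (-1.55 to -1.18).

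*Hebp1*, a haem-binding protein, had 54 UMIs in the WT-labelled library and 2 in the KO-labelled library (log2 ratio -4.22, -7.61 to -2.60), and classical monocytes had -5.12. *Snx20* had 56 and 9 UMIs (-2.34), and its ratio was -2.76 in classical monocytes, -2.84 in C1q-high macrophages and -2.68 in T cells. *Gdpd3* had 126 and 19 UMIs (-2.47) and a ratio of -5.71 in T cells. These 3 genes therefore differed between the libraries in cells of other classes as well, and so did other named genes. In C1q-high macrophages and T cells *Lyz2* was at 0.42 and 0.48, *Sh3bgrl3* at 1.16 and 0.41 and *Id2* at -0.81 and -0.60. *Chil3* was at 0.99 in macrophages and at 0.52 (-0.08 to 1.15) in T cells. Others went the opposite way, among them *Cd36* (-0.86) and *Ifi203* (-0.60) in macrophages and *Ccl4* (0.24) in T cells.

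*Rgs1*, a regulator of G protein signalling, had 50 and 3 UMIs (-3.62, -6.16 to -2.20), against -0.51 in classical monocytes. *Hmox1*, haem oxygenase 1, had 117 and 18 UMIs (-2.44), and 3 of the 48 WT-labelled cells held 53 of the 117. Cells with a UMI were 68.8% and 30.4%, and 56.8% and 20% after thinning, while in T cells, where free RNA can give UMIs, the thinned shares were 14.1% and 7.9%. With a threshold of 2 UMIs for the 3 rule genes its ratio was 0.36. That threshold added 19 KO-labelled cells with 175 UMIs of *Hmox1*, of which 1 cell held 156, and under the 11 other alternatives the ratio lay between -3.25 and -2.07. *Hilpda*, *Mxd1*, *Ccl4*, *Rtn4*, *Fabp5* and *Zfand5* had log2 ratios of -2.16 to -1.68. Of the 12 genes named as lower, 6 were past 2-fold under every alternative tried (*Hebp1*, *Gdpd3*, *Id2*, *Snx20*, *Fabp5* and *Zfand5*). *Rgs1* was at -0.71 with a threshold of 2 UMIs for the 3 rule genes, *Hilpda* at -0.59 and *Mxd1* at -0.67 with a threshold of 5, and *Rtn4* at -0.51 when every cell was thinned. *Ccl4* was at -0.15 without members with markers of other cells and at -0.74 without the C1q condition and another one. It was found in 33.3% and 30.4% of cells, and 1 WT-labelled cell held 32 of its 102 UMIs there. *Fabp5*, a fatty acid-binding protein, had 118 and 29 UMIs in nonclassical monocytes, while in classical monocytes its ratio was 0.13 (-0.04 to 0.29). *Spp1*, *Hspa1a*, *Il1rn* and *Cxcl10* were not named because 32.8% to 65.1% of their UMIs came from 1 cell.

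**Figure D4:**
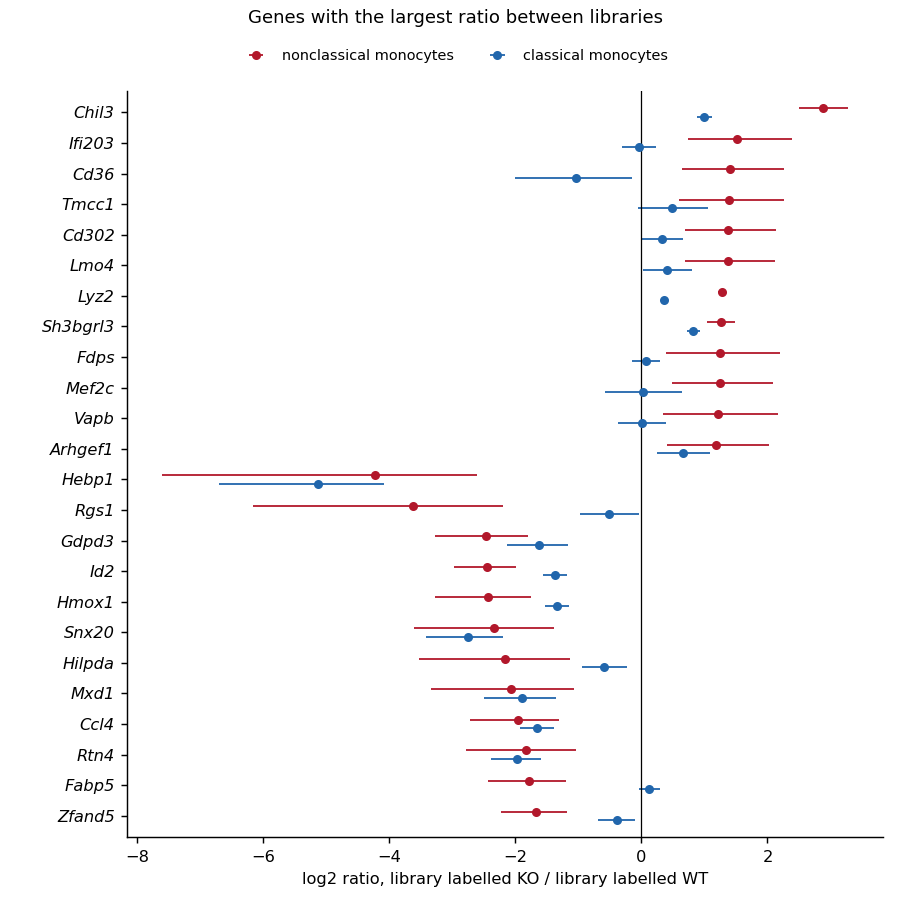
Log2 ratio between the libraries (KO-labelled over WT-labelled) for the 12 named higher and 12 named lower genes in nonclassical monocytes (red) and in classical monocytes (blue), with 95% counting intervals. *Chil3* lies at 2.87 and 1.0, *Id2* at -2.45 and -1.36, and *Cd36* at 1.41 and -1.04.

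Of 7 measured MHC class II and costimulation genes, which serve antigen presentation to CD4 T cells, 0 passed 2-fold between the libraries in either direction, while the intervals of 5 lay below 0 (median -0.67), beside 7.94% of all genes. *H2-Aa* stood at 4513 and 2391 CPM (log2 ratio -0.92, -1.05 to -0.78), *H2-Ab1* at 4734 and 2970 CPM (-0.67, -0.80 to -0.55), *H2-Eb1* at 2389 and 1376 CPM (-0.80, -0.98 to -0.61) and *Cd74*, the invariant chain, at 14981 and 9939 CPM (-0.59, -0.66 to -0.52). Class I genes had a median of -0.34, with 1 of 12 lower past 2-fold and 5 intervals below 0, beside 3.51% and 7.94% of all genes.

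The class II genes varied far more among cells than between the libraries. Their summed UMIs per 10000 had a median of 96.8 in the WT-labelled library (2.51 to 1057) and 28.2 in the KO-labelled library (5.15 to 913). Of the 94 cells 41 had 100 or more (24 and 17 by library) and 53 had fewer (24 and 29). The cells with 100 or more had lower levels of several nonclassical genes: *Eno3* was at 150 CPM against 309 CPM, *Ear2* at 408 against 687 and *Pglyrp1* at 178 against 663. *Spn* was at 108 against 168 CPM, with overlapping intervals (73.5 to 154 and 124 to 222). *Adgre5* was at 328 against 340 CPM, and *Ccr2* was higher, at 346 against 206 CPM. *Ace* and *Nr4a1* were at 352 against 405 CPM and 300 against 336 CPM. *Flt3*, a defining gene of dendritic cells, had 0 UMIs in both sets, and *Cd209a* had 3 UMIs in the set with more class II and 0 in the other.

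**Figure D5:**
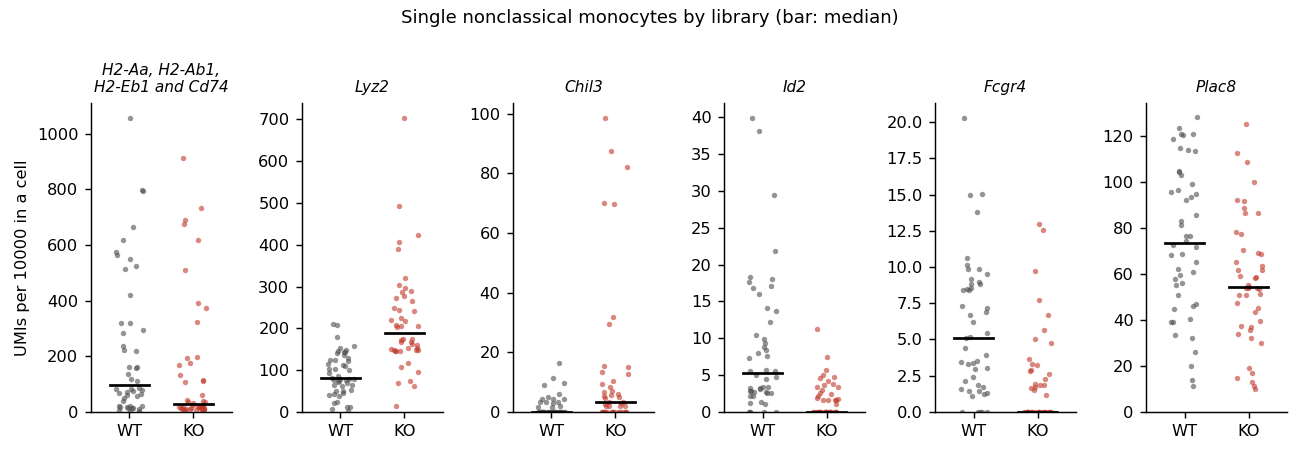
Single nonclassical monocytes of the WT-labelled library (48 points) and the KO-labelled library (46 points), with UMIs per 10000 on the y axis for the MHC class II sum, *Lyz2*, *Chil3*, *Id2*, *Fcgr4* and *Plac8*; the bar is the median. The class II sum spans 2.51 to 1057 in the WT-labelled library and 5.15 to 913 in the KO-labelled library, and the *Lyz2* medians are 80.2 and 189.

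Interferon-induced genes had 1 of 17 over 2-fold higher in the KO-labelled library and 6 lower, beside 1.82% and 3.51% of all genes. Their median was -0.39. *Isg15* stood at 241 and 94.0 CPM (log2 ratio -1.34, -2.07 to -0.69), *Irf7*, the amplifier of the interferon response, at 234 and 101 CPM (-1.19, -1.90 to -0.55) and *Oasl2* at 103 and 15 CPM (-2.62, -4.73 to -1.28). In *Rsad2*, with 43 and 4 UMIs, 38.3% of the UMIs came from 1 cell. The classical monocytes of the same libraries had ratios of -0.56 for *Isg15* and 0.13 for *Oasl2*.

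Classical identity genes had 2 of 15 over 2-fold higher and 0 lower, beside 1.82% and 3.51% of all genes, with a median of 0.30. *Ly6c2*, which is not in that list, stood at 48.1 and 105 CPM, within the 2 UMIs per cell that the rule allowed. In the adhesion and trafficking list, *Cxcr4*, the receptor that retains monocytes in bone marrow, had 41 and 6 UMIs (-2.45, -4.07 to -1.30). In the cytokine list, *Cxcl3* had 34 UMIs in the WT-labelled library and 0 in the KO-labelled library, which allows up to 11.3 CPM there, and classical monocytes had 145 and 0.

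The remaining lists are given as genes over 2-fold higher and lower in the KO-labelled library, beside 1.82% and 3.51% of all genes. Transcription factors had 0 of 23 higher and 3 lower, Fc and inhibitory receptors 0 of 24 and 1, survival genes 0 of 12 and 1, adhesion genes 0 of 17 and 1, scavenging genes 2 of 17 and 2, cytokines 2 of 15 and 3, glycolysis and hypoxia genes 0 of 13 and 2, pattern recognition genes 0 of 7 and 1, and alternative activation genes 1 of 6 and 2. Of the Fc and inhibitory receptors the intervals of 8 lay below 0 and of 1 above, and of the cytokines 5 and 3, beside 7.94% and 6.68% of all genes. These shares were not matched for UMIs, on which the width of an interval depends. Immediate early genes had 1 of 18 higher and 4 lower with a median of 0.14, and 5 intervals lay on either side of 0. Among them *Fos* was at 959 and 1564 CPM (0.70, 0.49 to 0.92) and *Jund* at 433 and 158 CPM (-1.44, -1.99 to -0.95).

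The markers of other cell types were summed over their lists. The rule that chose the cells caps *Cd3d*, *Cd3e*, *Cd3g*, *Cd209a*, *Siglech*, *Ly6c2* and the C1q genes, so low counts of these genes follow in part from the choice. T cell markers had 45 and 30 UMIs in the 48 and 46 cells, of which *Cd3d* gave 12 and 12, *Cd3e* 5 and 1 and *Cd3g* 10 and 10. NK cell markers had 7 and 8, B cell markers 6 and 7, dendritic cell markers 1 and 6, erythroid markers 9 and 7, platelet markers 0 and 2 and melanoma markers 2 and 9. The endothelial list had 10 and 2 UMIs, all of *Pecam1*, with *Cdh5*, *Kdr* and *Plvap* at 0. The plasmacytoid dendritic cell list had 58 and 40 UMIs, with *Siglech*, *Ccr9* and *Cox6a2* at 0, so all came from *Bst2*, *Tcf4* and *Runx2*. That list was also found in 92.3% and 90.9% of classical monocytes, at 507 and 413 CPM. Markers of the related myeloid cells were more abundant and differed by library. The classical monocyte list had 311 and 712 UMIs, of which 65 and 409 were *Chil3* and 246 and 303 the other genes, 15 and 28 of them *Ly6c2*. The macrophage list had 537 and 920 UMIs, of which 487 and 884 were *Apoe* and 50 and 36 the other genes. The C1q genes, which the rule caps, gave 31 and 21 of these, with *Folr2* at 0 in both libraries. The part of such cells in the differences between the libraries was not tested. Neutrophil markers had 355 and 288 UMIs, of which 1 cell held 170 in the WT-labelled library and 1 cell held 275 in the KO-labelled library. The filter that follows also counts *Bst2*, *Tcf4* and *Runx2*, so the cells it left out were not shown to be of another type. Leaving out cells with 2 or more UMIs of T cell, NK cell, B cell or plasmacytoid dendritic cell markers kept 13 and 18 cells, in which 795 genes could be measured. Of these, 25 were over 2-fold higher in the KO-labelled library and 36 lower, or 3.14% and 4.53%, against 1.82% and 3.51% in all 94 cells.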

How the data were processed

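Tumor-infiltrating immune cells of B16-OVA tumors were profiled in 1 Chromium 3′ V2 library per genotype (*Maoa* WT and *Maoa* KO, 10 tumors pooled in each), and samples were grouped by the genotype given in GEO's labels. Per the labels, the authors used Cell Ranger and the mm10 build; per their methods, reads were merged into 1 matrix, cells were filtered on UMIs, genes and mitochondrial share, and values were normalised in Seurat. The authors deposited 1 table of natural log values, although it is described as raw counts: each value is the natural log of 1 plus a cell's UMIs scaled to 10000 per cell. The inverse summed to 10000 in each of 5022 cells over 17232 genes, and 100% of nonzero values were whole multiples of 1 UMI (tolerance 0.01), so UMIs were recovered and used as counts. Cells were assigned to libraries by barcode suffix, as the labels give it, and 0 columns were unmapped. The 2 libraries shared 13 barcodes, none of them in a nonclassical monocyte.

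UMIs were summed per library and cell class and given as CPM with exact Poisson intervals (95%). Ratios added 0.5 UMI to each sum, with exact intervals for the ratio, and a count of 0 was given a limit of 3 UMIs. A gene was measured with at least 30 UMIs over the groups compared, and called past 2-fold (against another class, in both libraries). The genes named were those of the lists, the 15 with the largest ratio to classical monocytes in each direction (at least 100 UMIs, past 2-fold in both libraries, rule genes left out), and the 12 with the largest ratio between libraries in each direction (at least 50 UMIs, intervals of the levels not overlapping, at most 30% of UMIs from 1 cell). Shares of cells with a UMI were exact binomial, before and after thinning to 3800 UMIs per cell. No doublet caller was run. Members with 2 or more UMIs of T cell, NK cell, B cell or plasmacytoid dendritic cell markers were left out in an alternative. They are called members with markers of other cells here, although the last of these lists was also found in most classical monocytes. The study's rank test over cells was not used, since cells of 1 library are not replicates. The members, gene lists and comparisons were chosen with earlier results of these data known. Of the list genes, *Vsig4*, *Clec7a*, *Agt*, *Agtr1a*, *Agtr2* and *Cebpd* were not analysed here, and some genes, among them 1 that the rule limits, are not reported here, and 5 were read under older symbols. The ratio code was tested on simulated data. Python 3.11.15, numpy 2.4.6, scipy 1.17.1 and matplotlib 3.10.9 were used. Neighbour shares, gates at other thresholds, thinning, other UMI minimums, scalings and folds were tried as alternatives.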

Additional observations from a re-analysis of the deposited data

Results flagged for a closer look

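In 8 list genes the nonclassical and the classical monocytes of the same libraries differed in opposite directions between the libraries, each beyond its counting interval. The difference between the 2 cell types was not tested, since each has 1 library per genotype. Over all 2305 measured genes, 337 differed between libraries beyond counting error in nonclassical monocytes, of which 174 also did so in the same direction in classical monocytes and 13 in the opposite direction. *Plac8* had a log2 ratio (KO-labelled over WT-labelled) of -0.39 in nonclassical monocytes (2407 and 1565 UMIs) and 0.15 in classical monocytes. *Hp*, haptoglobin, had 0.40 (129 and 145 UMIs) and -0.32. *Jun* had 1.0 (82 and 140 UMIs) and -0.29. *Cd36* had 1.41 (20 and 46 UMIs) and -1.04. *Tlr2*, a sensor of bacterial lipoproteins, had -1.05 (37 and 15 UMIs) and 0.82.

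In the other 3 genes 1 cell held 32.8% to 86.7% of the UMIs in nonclassical monocytes. *Cxcl9* had a log2 ratio of 3.20 in nonclassical monocytes (3 and 27 UMIs) and -0.81 in classical monocytes, and 86.7% of its UMIs in nonclassical monocytes came from 1 cell. *Cxcl10* had 1.19 (49 and 96 UMIs) and -0.39, with 55.9% from 1 cell. *Hspa1a*, a heat shock gene, had -3.05 (53 and 5 UMIs) and 1.46, with 32.8% from 1 cell.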

How the results depend on the processing

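No paired analysis was possible because each genotype has 1 library, and for the same reason no replicate could be left out. The share of nonclassical monocytes in the WT-labelled library, 2.01%, was 1.25% with at least 5 UMIs of the 3 genes, 0.543% without members with markers of other cells, 1.29% with every cell thinned before the rule and 5.22% as a share of *Csf1r*-positive cells. In the KO-labelled library, 1.75% became 2.47% with at least 2 UMIs, 0.875% with at least 5, 0.989% with no UMI of *Ly6c2*, 0.684% without members with markers of other cells and 4.95% of *Csf1r*-positive cells. The number of genes over 2-fold higher in the KO-labelled library, 42, became 26 with at least 5 UMIs, 69 without the C1q condition and another one, 25 without members with other markers, 22 with thinning, 311 and 6 at UMI minimums of 10 and 100, and 190 at 1.5-fold. The number lower, 81, became 132 without the C1q condition and another one, 36 without members with other markers, 370 and 22 at minimums of 10 and 100, and 268 at 1.5-fold. Against classical monocytes, 167 genes higher became 265 without members with other markers, 67 with thinning, 340 and 70 at minimums of 10 and 100, and 493 at 1.5-fold, and 249 lower became 122 with thinning, 379 and 154 at those minimums, and 597 at 1.5-fold. For thresholds, minimums and left-out cells the change follows in part from the number of cells or genes; the cause was not tested otherwise.

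The direction of 2 named genes turned between the libraries: *Ifi203* was at -0.047 when every cell was thinned and *Hmox1* at 0.36 with at least 2 UMIs, where 1 added cell held 156 of its UMIs. Both rescalings shift all genes alike and no nonclassical monocyte had a barcode found in both libraries, so these 3 alternatives are left out of the next counts. Of 216 values of named genes between the libraries 180 stayed within their counting interval, 34 moved beyond it and 2 turned. Against classical monocytes 194 of 240 stayed, 46 moved and 0 turned. The mean share of nonclassical monocytes among nearest neighbours stayed between 46.5% and 52.1%. The alternatives that left out members rich in *S100a8* and *S100a9* or in MHC class II were chosen after seeing the data. With 46 to 48 cells per library, genes with few UMIs have intervals of several fold.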
